A study of Mus musculus with 8 samples.

Results

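The 10 genes described here belong to the integrated stress response: Atf4, Atf3, Atf5, Ddit3, Ddit4, Asns, Trib3, Chac1, Sesn2 and Nupr1. The rule names the genes and uses no measured value, but they were proposed with earlier results of these data known. All 10 are among the 20170 genes of the count matrix. The question was whether loss of SDHA turns this response on in T cells. In stimulated SDHA-KO CD4 cells 8 of the 10 genes were lower than in WT and 1 was higher. Of all genes tested there, 20.5% were lower and 22.7% higher. In unstimulated cells none of the 10 genes passed the test. Few genes of any kind passed there, with 0.668% higher and 1.08% lower in all T cells. Several of the 10 were counted too rarely in that state to show a difference.

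In the integrated stress response, kinases that sense different kinds of stress (Eif2ak1 to Eif2ak4 in the gene names) phosphorylate the translation initiation factor eIF2. General protein synthesis then slows, while the mRNA of the transcription factor ATF4 is translated more. ATF4 and its partners switch on genes for amino acid supply, tRNA charging and stress-induced arrest or death, and mitochondrial faults are one known trigger of the pathway. Because ATF4 is controlled largely at translation, the Atf4 mRNA measured here is not a measure of ATF4 protein.

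Purified T cells of SDHA-KO mice (Sdha fl/fl CD4-Cre) and of WT mice were profiled as single cells with a 3′ droplet kit, either unstimulated or after 48 h with antibodies to CD3 (5 μg/mL) and CD28 (2.5 μg/mL). There were 2 libraries in each of the 4 groups. The study used mice of 8 to 12 weeks. Cre driven by the Cd4 promoter acts from the double-positive stage of the thymus, so γδ T cells, which do not pass through it, are not a target of the deletion. Whether the WT mice of these libraries carried the floxed allele, and whether the 2 libraries of a group came from different mice, is not given in the labels. The p-values therefore measure the spread between these libraries, which may be technical.

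SDHA is the flavoprotein subunit of succinate dehydrogenase, complex II of the respiratory chain, and its mRNA checks the labels. Levels are given as CPM, the unique molecular identifiers (UMIs, 1 per captured mRNA molecule) of a gene summed over the cells of a library and scaled to a common library total with TMM factors, unless another scale is named. In all T cells Sdha had 74.7 and 73.9 CPM after stimulation in WT and 37.6 and 34.1 CPM in SDHA-KO. Before stimulation it had 98 and 99.1 CPM in WT and 46.6 and 46.1 CPM in SDHA-KO. The 3′ kit counts molecules without regard to transcript length. In a library's sum, more cells with a transcript and more transcripts per cell cannot be told apart.

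The libraries held 1395 to 1801 cells. Unstimulated libraries had 10947009 to 14883158 UMIs and stimulated libraries 46201110 to 51398728. Of 12823 distinct cell barcodes, 23 occurred in more than 1 library. The authors' annotation divides the cells into a CD4 and a CD8 class and into naive, central memory (Tcm), effector memory (Tem) and regulatory (Treg) clusters. Transcripts of the T cell receptor complex (Cd3e, Cd3d or Cd3g) were found in 99.0% to 100.0% of the cells of each class and library. The stimulated CD8 class differed in makeup between the genotypes, however. A UMI of Trdc, the constant region of the γδ receptor, was found in 3.67% and 4.92% of its WT cells but in 59.1% and 56.1% of its SDHA-KO cells, and a UMI of Cd8a or Cd8b1 in 91.9% and 92.4% of WT cells but in 57.7% and 62.4% of SDHA-KO cells. The 5 γδ markers summed to 18.1 and 21.1 CPM of total UMIs in WT and to 254 and 261 in SDHA-KO, and each of the 5 had UMIs in the class. The calls on the 10 genes in CD8 cells and the CD8 minus CD4 difference are therefore also given for a strict class. It holds cells with a Cd8a or Cd8b1 UMI and no Cd4 or Trdc UMI. Shares of cells, subsets, mitochondrial ranges and the other gene lists use the CD8 class as annotated, and the part of the Trdc cells in those values was not tested. The strict class kept 736 and 709 stimulated WT cells and 169 and 147 stimulated SDHA-KO cells. In the stimulated CD4 class Trdc UMIs occurred in 1.98% and 3.21% of WT cells and in 10.1% and 8.64% of SDHA-KO cells. The strict CD4 class keeps cells with a Cd4 UMI and without those of Cd8a, Cd8b1 or Trdc. Unstimulated classes differed as well. A Cd4 UMI was found in 64.0% and 65.0% of WT and 93.3% and 93.3% of SDHA-KO cells of the unstimulated CD4 class. A Trdc UMI was found in 3.90% and 3.41% of WT and 19.7% and 15.2% of SDHA-KO cells of the unstimulated CD8 class. The unstimulated results and the test between states rest on these unlike classes, except where a strict class is named.

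All 10 genes are protein coding, and their positions on the mouse assembly GRCm38, to which the authors' mm10 build corresponds, come from RefSeq. The transcription factor genes lie at chr15:80255184-80257545 (Atf4), chr1:191170296-191183333 (Atf3), chr7:44812256-44816658 (Atf5) and chr10:127290793-127296291 (Ddit3). The remaining genes lie at chr10:59949675-59951770 (Ddit4), chr6:7675165-7693209 (Asns), chr2:152337425-152344060 (Trib3), chr2:119351242-119354326 (Chac1), chr4:132492804-132510456 (Sesn2) and chr7:126623246-126625470 (Nupr1). In the GENCODE annotation Sesn2 overlaps Gm12981 on the same strand, so its counts could be split between both.

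ATF4 binds with a C/EBP partner to a composite element whose core can be written TGATGNAA. The promoter windows of RefSeq, 250 bases before to 50 bases after each start site, were searched for these letters on both strands. Matches were found in 5 of the 10 genes, and in 4.51% of the 27025 genes with a window. The 10 genes were chosen as members of this response, so the comparison with all genes is not a test. The matches are shown in capitals. These 5 genes include the 4 with the lowest unstimulated levels. Sesn2, without a match, was below Trib3 in unstimulated WT cells, at a mean of 1.09 against 1.54 CPM in all T cells. The matches of Atf3, Chac1, Nupr1 and Trib3 lie on the opposite strand and therefore read as the reverse complement of the core.
Asns (chr6:7693210-7693292, minus strand, match 23 bases before the start): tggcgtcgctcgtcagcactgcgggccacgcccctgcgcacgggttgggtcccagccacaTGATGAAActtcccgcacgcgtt
Atf3 (chr1:191183376-191183503, minus strand, match 110 bases before the start): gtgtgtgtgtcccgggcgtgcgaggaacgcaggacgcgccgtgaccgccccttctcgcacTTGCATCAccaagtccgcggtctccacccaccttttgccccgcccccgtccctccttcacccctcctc
Chac1 (chr2:119350992-119351116, plus strand, match 193 bases before the start): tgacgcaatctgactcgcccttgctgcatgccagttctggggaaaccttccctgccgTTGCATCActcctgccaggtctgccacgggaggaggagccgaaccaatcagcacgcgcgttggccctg
Nupr1 (chr7:126625513-126625640, minus strand, match 110 bases before the start): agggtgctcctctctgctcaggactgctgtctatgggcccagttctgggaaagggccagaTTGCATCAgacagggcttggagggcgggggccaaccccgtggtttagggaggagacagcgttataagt
Trib3 (chr2:152344028-152344057, minus strand, match just after the start): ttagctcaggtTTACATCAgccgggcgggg

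Neither window of Atf5 and none of the windows of Atf4, Ddit3, Ddit4 and Sesn2 held the core. The cAMP response element TGACGTCA, which ATF proteins also bind, was in none of the 10 genes' windows and in 2.03% of all genes. A match of letters describes the sequence only and does not show binding.

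Stimulation of WT cells came with a rise of all 10 genes in all T cells, against 37.0% of the 15262 genes tested that rose and 31.9% that fell (edgeR's quasi-likelihood test, Benjamini-Hochberg adjusted p under 0.05, here and below). Atf4 rose from 46.1 and 47.0 CPM before to 139 and 135 CPM after stimulation, 2.95-fold higher (log2 fold change 1.56 ± 0.08, SE of the fit, n = 2 a group; adjusted p = 1.1e-07). Sesn2, which encodes a leucine sensor upstream of mTORC1, rose 6.86-fold, and Trib3, a pseudokinase that restrains ATF4 and Akt, 9.96-fold. Atf5, a relative of ATF4, rose 2.75-fold, Ddit4, an inhibitor of mTORC1 also named REDD1, 1.95-fold, and Ddit3, the death-linked factor CHOP, 1.35-fold. The rise of Ddit3 lost its call without unstimulated WT replicate 1, without stimulated WT replicate 2, and when a change of at least 1.5-fold was required.

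Several of the genes were close to silent before stimulation. Atf3, an early stress factor, had 0 UMIs in both unstimulated WT libraries and 2554 and 3108 after stimulation, so it was at least 457-fold higher, taking 3 UMIs over the group as the floor. Chac1, which degrades glutathione, went from 0 UMIs in both libraries to 266 and 273, at least 43.5-fold higher, and Nupr1, a small stress-induced chromatin protein, from 0 to 193 and 356, at least 44.3-fold higher. Asns, the synthetase that makes asparagine, had 5 and 0 UMIs before and 4027 and 3690 after.

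In SDHA-KO cells stimulation raised 7 of the 10 genes, against 38.5% of genes that rose and 32.6% that fell. Atf4 went from 53.4 and 47.8 CPM to 127 and 114, 2.38-fold higher. Ddit3 and Ddit4 went the other way. Ddit3 fell 3.31-fold, from 29.6 and 23.0 CPM to 8.39 and 7.43, and Ddit4 1.48-fold, from 40.0 and 33.4 CPM to 25.3 and 24. Trib3 had 1.98 and 2.27 CPM before and 4.02 and 2.04 CPM after, and did not pass the test (adjusted p = 0.19). Among the 7 that rose, Atf5 lost its call without unstimulated SDHA-KO replicate 1 or 2 or stimulated SDHA-KO replicate 1, and Nupr1 without unstimulated SDHA-KO replicate 2. Both genotypes are compared with their own unstimulated libraries, so these are separate estimates.

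**Figure D1:**
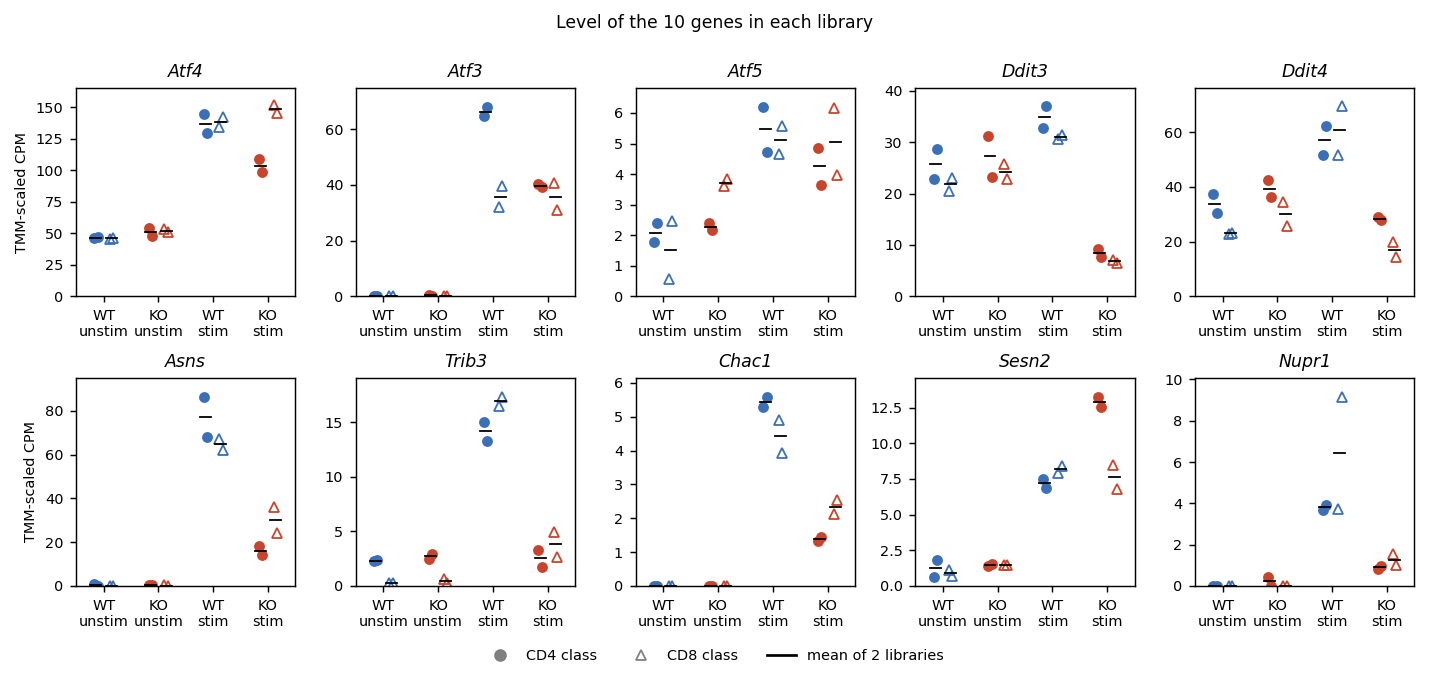
Level of each gene (y axis, TMM-scaled CPM, scale differs between panels) in every library of the 4 groups (x axis), for the CD4 class (filled circles) and the CD8 class (open triangles), with black bars for the mean of 2 libraries. Stimulated SDHA-KO libraries lie below stimulated WT libraries for Ddit3, Ddit4, Asns, Trib3, Chac1 and Nupr1 in both classes, and above them for Sesn2 in the CD4 class.

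Stimulated SDHA-KO CD4 cells held less of most of these transcripts than stimulated WT CD4 cells. The test called 8 of the 10 genes lower, against 20.5% of 14264 genes lower, and 1 higher, against 22.7% higher. The median log2 fold change of the 10 was -1.49, beside 0.00 for all genes tested. In all T cells 7 genes were lower (21.0% of all genes) and Sesn2 was higher (26.2%). In CD8 cells 6 were lower (23.5%) and none higher (26.8%).

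Among the transcription factors, Atf4 had 144 and 129.7 CPM in the stimulated WT CD4 libraries and 109 and 98.2 CPM in the SDHA-KO libraries, 1.32-fold lower (log2 fold change -0.40 ± 0.09, adjusted p = 0.0029). The groups did not overlap, although the difference was small. Atf3 had 64.5 and 67.8 CPM in WT and 40.2 and 39.2 CPM in SDHA-KO, 1.67-fold lower (-0.74 ± 0.09, adjusted p = 0.00012). Ddit3 showed the widest gap among them. Its WT libraries had 32.7 and 37.1 CPM, those of SDHA-KO 9.18 and 7.73 CPM, 4.14-fold lower (-2.05 ± 0.15, adjusted p = 2.9e-06), below the unstimulated SDHA-KO libraries at 31.3 and 23.3 CPM. Atf5 had 6.21 and 4.74 CPM in WT against 4.85 and 3.65 CPM in SDHA-KO, with overlapping groups (-0.37 ± 0.21, adjusted p = 0.18).

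The metabolic target Asns had 86.4 and 68.0 CPM in WT CD4 libraries and 18.3 and 13.9 CPM in SDHA-KO, 4.81-fold lower (-2.26 ± 0.17, adjusted p = 4.1e-06). SDHA-KO cells still held far more Asns than unstimulated cells, which had at most 0.802 CPM. Chac1 had 5.30 and 5.58 CPM in WT and 1.33 and 1.43 CPM in SDHA-KO, 3.91-fold lower (-1.97 ± 0.24, adjusted p = 0.00022).

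Trib3, the feedback inhibitor, had 15 and 13.3 CPM in WT CD4 libraries and 3.32 and 1.73 CPM in SDHA-KO, 5.68-fold lower (-2.50 ± 0.23, adjusted p = 1.5e-05). It was the largest decrease of the 10 genes in this class. The stress gene Nupr1 was scarce, with 3.69 and 3.93 CPM in WT and 0.814 and 0.974 CPM in SDHA-KO, 4.22-fold lower (-2.08 ± 0.39, adjusted p = 0.0020). It lost its call when libraries were thinned to the same total.

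The 2 regulators of mTORC1 moved in opposite directions. Ddit4 had 51.8 and 62.1 CPM in WT CD4 libraries and 28.9 and 27.8 CPM in SDHA-KO, 2.01-fold lower (-1.01 ± 0.11, adjusted p = 5.0e-05). Sesn2 had 7.49 and 6.88 CPM in WT and 13.3 and 12.6 CPM in SDHA-KO, 1.80-fold higher (0.85 ± 0.16, adjusted p = 0.0016). Sesn2 is known as a target of p53 as well as of ATF4.

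CD8 cells shared part of this pattern. Ddit3 had 30.7 and 31.4 CPM in stimulated WT CD8 libraries and 7.14 and 6.44 CPM in SDHA-KO, 4.54-fold lower (-2.18 ± 0.11, adjusted p = 2.9e-07). Ddit4 had 51.5 and 69.7 CPM in WT and 19.7 and 14.4 CPM in SDHA-KO, 3.52-fold lower (-1.82 ± 0.17, adjusted p = 9.4e-06). For both genes the SDHA-KO libraries lay well below the WT libraries. In the strict CD8 class the log2 fold change was -1.85 ± 0.14 for Ddit3 (adjusted p = 4.4e-07) and -1.32 ± 0.16 for Ddit4 (adjusted p = 1.9e-05).

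Trib3 had 16.5 and 17.3 CPM in WT CD8 libraries and 4.98 and 2.66 CPM in SDHA-KO, 4.32-fold lower (-2.11 ± 0.22, adjusted p = 1.7e-05). Asns had 67.4 and 62.1 CPM in WT and 36.3 and 24.2 CPM in SDHA-KO, 2.13-fold lower (-1.09 ± 0.16, adjusted p = 0.00026). Both also fell in the strict CD8 class, by 1.68 ± 0.20 (adjusted p = 1.5e-05) and 0.92 ± 0.24 (adjusted p = 0.0067) on the log2 scale. Nupr1 had 3.73 and 9.15 CPM in WT against 1.55 and 0.990 CPM in SDHA-KO, 4.96-fold lower (-2.31 ± 0.45, adjusted p = 0.0024), and its WT libraries were far apart. In WT replicate 2, the higher of them, 9 of 834 cells held 157 of its 235 UMIs, or 66.8%. Without that library the log2 fold change of Nupr1 was -1.55 ± 0.52 (adjusted p = 0.044), and in the strict class -2.21 ± 0.57 (adjusted p = 0.0072).

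Chac1 had 4.90 and 3.93 CPM in WT CD8 libraries and 2.11 and 2.54 CPM in SDHA-KO, 1.90-fold lower (-0.93 ± 0.29, adjusted p = 0.023). In the strict class its log2 fold change was -0.45 ± 0.37 (adjusted p = 0.33), and it also lost its call with DESeq2 (a second count model), with a required 1.5-fold change, and without stimulated WT replicate 1, stimulated WT replicate 2 or stimulated SDHA-KO replicate 1, and in Tcm clusters alone. In the strict class 5 genes were lower, against 24.4% of 11734 genes, and Atf4 was higher, against 25.0%.

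Of the 4 genes that did not pass in CD8 cells, Atf4 depended on which cells were used. It had 134 and 142 CPM in WT and 152 and 145 CPM in SDHA-KO (0.11 ± 0.07, adjusted p = 0.21). In the strict class it was higher (0.26 ± 0.08, adjusted p = 0.014), while in CD8 cells with under 10% mitochondrial UMIs it was lower (-0.24 ± 0.07, adjusted p = 0.013), and so it was in the Tem clusters alone (-0.26 ± 0.07, adjusted p = 0.026). Atf3 had 31.9 and 39.7 CPM in WT and 40.5 and 30.9 CPM in SDHA-KO, Atf5 4.66 and 5.57 against 6.16 and 3.96 CPM, and Sesn2 7.94 and 8.41 against 8.46 and 6.81 CPM. The groups overlapped for these 3 genes.

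**Figure D2:**
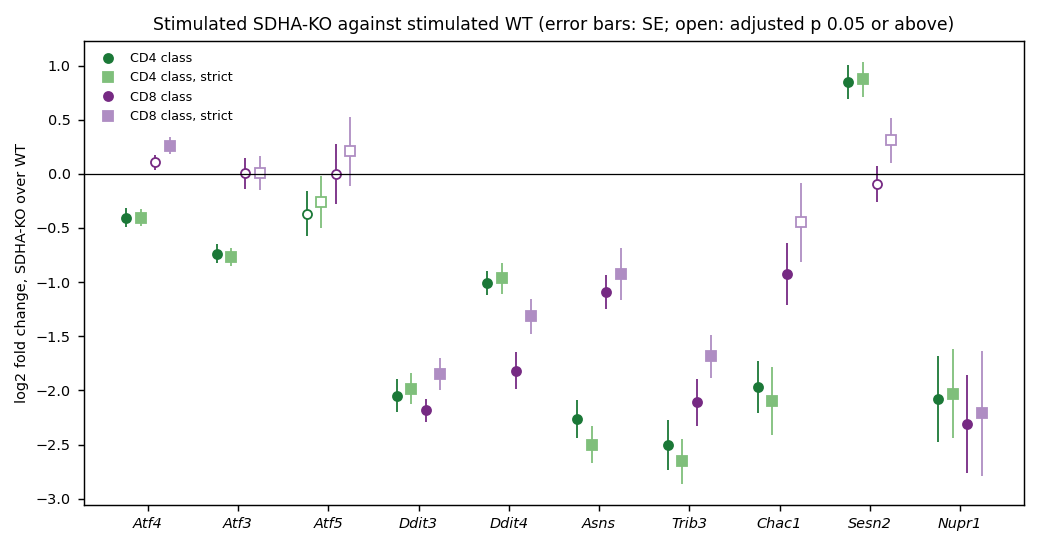
Log2 fold change of stimulated SDHA-KO over stimulated WT (y axis) for each gene (x axis) in the CD4 and CD8 classes as annotated (circles) and in the strict classes (squares), with error bars of 1 SE and open symbols where the adjusted p was 0.05 or above. CD4 values are -2.05 for Ddit3, -2.26 for Asns and 0.85 for Sesn2, and the strict classes lie close to the annotated ones in CD4 cells.

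The SDHA-KO effect differed between the 2 classes for 6 of the 10 genes, in a fit with a term for that difference. It was higher in CD8 than in CD4 cells for 4 genes (11.9% of 14617 genes) and lower for 2 (10.4%). The log2 effect in CD8 minus that in CD4 cells was 1.13 ± 0.11 for Asns (adjusted p = 0.00084), 0.72 ± 0.13 for Atf3 (adjusted p = 0.0074), 0.49 ± 0.09 for Atf4 (adjusted p = 0.0066) and 1.04 ± 0.28 for Chac1 (adjusted p = 0.034). It was -0.83 ± 0.13 for Ddit4 (adjusted p = 0.0043) and -0.96 ± 0.16 for Sesn2 (adjusted p = 0.0049). For Ddit3 it was -0.16 ± 0.12 (adjusted p = 0.37), and for Trib3 0.33 ± 0.18 (adjusted p = 0.23). In the strict classes, where 5.32% of 13737 genes were higher and 5.09% lower, Atf4, Atf3, Asns and Chac1 kept the call, Trib3 gained it (0.95 ± 0.23, adjusted p = 0.029), and Ddit4 (-0.34 ± 0.12, adjusted p = 0.10) and Sesn2 (-0.55 ± 0.22, adjusted p = 0.14) lost it. The call of Chac1 was also lost without each of the 4 stimulated libraries in turn, with DESeq2, with thinned libraries and in cells with under 10% mitochondrial UMIs, and that of Sesn2 with DESeq2 and with thinned libraries.

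The cells of the stimulated SDHA-KO CD8 class with a Trdc UMI had kept Sdha. On the scale of CPM of total UMIs, Sdha was at 74.0 and 70.9 in these 302 and 222 cells, at 33.4 and 30.7 in the strict CD8 cells of the same libraries, and at 90.1 and 85.3 in strict CD8 cells of WT. In the 31 and 41 Trdc cells of the WT CD8 class, Ddit3 had 92.6 and 22.1 CPM and Asns 89.4 and 88.3 CPM. Those Ddit3 values rest on 88 and 30 UMIs. In the same WT cells Ddit4 had 64.2 and 93.4 CPM and Trib3 43.1 and 17.7 CPM. Ddit3 had 7.33 and 5.28 CPM in the Trdc cells of SDHA-KO libraries, beside 8.88 and 10.6 in their strict CD8 cells and 33.9 and 37.1 in strict CD8 cells of WT. Ddit4 showed the same order, with 18.3 and 10.6 CPM in Trdc cells, 30.5 and 25.0 in strict CD8 cells of SDHA-KO and 61.8 and 79.7 in those of WT.

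Asns had 33.1 and 28.8 CPM in the Trdc cells and 55.3 and 22.1 in strict CD8 cells of SDHA-KO, so these overlapped, beside 79.9 and 72.9 in WT. Trib3 had 4.94 and 1.95 CPM in the Trdc cells, 7.04 and 4.67 in strict CD8 cells of SDHA-KO and 18.6 and 20.4 in WT. These are values without a test, and the Trdc cells were set apart after the makeup of the class had been seen.

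In unstimulated cells 0 of the 10 genes passed the test in all T cells, in CD4 cells or in CD8 cells with edgeR, and 0 with DESeq2. At an unadjusted p under 0.05 edgeR gave 1, 1 and 0 genes and DESeq2 also 1, 1 and 0. Few genes of any kind passed in unstimulated cells, with 0.668% higher and 1.08% lower in all T cells, 0.526% and 0.575% in the CD4 class, and 0.283% and 0.664% in the CD8 class. The median log2 fold change of the 10 was 0.34 in all T cells, beside 0.00 for all genes. It was 0.17 in CD4 and 0.28 in CD8 cells, beside 0.03 and 0.00. These medians include genes with too few UMIs for a fold change.

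Atf4 had 45.9 and 46.7 CPM in unstimulated WT CD4 libraries and 54.1 and 47.4 CPM in SDHA-KO (0.13 ± 0.10, adjusted p = 0.59). Ddit3 had 22.8 and 28.8 CPM in WT and 31.3 and 23.3 CPM in SDHA-KO, and Ddit4 37.5 and 30.3 against 42.5 and 36.2 CPM. Of these, Ddit3 and Ddit4 overlapped between the groups. In all T cells Atf3 had 0 UMIs in both WT libraries and 4 and 2 in SDHA-KO, Nupr1 0 in both and 4 and 0, Chac1 0 in all 4 libraries, and Asns 5 and 0 against 3 and 3. At these counts a difference was not detectable, and no fold change is given.

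The test of the difference between the states asked whether the SDHA-KO effect after stimulation departs from that before. It was lower after stimulation for 4 genes in all T cells (11.4% of all genes), 5 in the CD4 class (10.5%) and 2 in the CD8 class (10.2%). It was higher for none (15.6%, 10.9% and 13.5%). In all T cells the log2 difference was -2.16 ± 0.19 for Ddit3 (adjusted p = 0.00019), -1.53 ± 0.19 for Ddit4 (adjusted p = 0.00070) and -2.81 ± 0.51 for Trib3 (adjusted p = 0.0037). In CD8 cells it was -2.33 ± 0.18 for Ddit3 and -2.20 ± 0.30 for Ddit4, and in the strict CD8 class -1.84 ± 0.23 (adjusted p = 0.00018) and -1.90 ± 0.29 (adjusted p = 0.00052). Atf4 passed in CD4 cells with -0.53 ± 0.13 (adjusted p = 0.017), but not without unstimulated WT replicate 1 or 2, unstimulated SDHA-KO replicate 1, stimulated WT replicate 1 or stimulated SDHA-KO replicate 2, nor with a required 1.5-fold change. The call for Atf3, lost without unstimulated WT replicate 1 or 2 or unstimulated SDHA-KO replicate 1, rests on 6 UMIs in all the unstimulated libraries together, so its fitted size depends on the prior count and has no meaning as a fold. The same holds for Asns, Chac1 and Nupr1, which were not called.

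The share of cells with a UMI was compared after each cell had been thinned to 5000 UMIs, since a deeper cell shows more genes. Median depth was 14753 and 14464 UMIs per cell in stimulated WT CD4 libraries and 23669 and 24651.5 in SDHA-KO. Thinning left out 18 and 20 WT and 74 and 86 SDHA-KO cells there. The smallest p of an exact permutation test of 2 against 2 libraries is 0.33, so these shares carry no test. No T cell class is known to lack these genes, so no background share from free RNA is given.

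In stimulated CD4 cells Asns was found in 26.7% and 20.3% of WT cells and in 6.11% and 5.34% of SDHA-KO cells. Without thinning the shares were 52.6% and 45.3% against 18.0% and 14.95%. Ddit3 was found in 12.7% and 13.7% of WT cells and 5.08% and 4.76% of SDHA-KO cells, unthinned 37.0% and 40.9% against 17.9% and 15.4%. Fewer SDHA-KO cells than WT cells showed either gene. Ddit4 was seen in 17.2% and 18.2% of WT and 12.5% and 13.5% of SDHA-KO cells, and unthinned in 45.6% and 51.0% against 39.0% and 40.1%.

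Across the 10 genes both SDHA-KO libraries lay below both WT libraries for 8 genes in CD4 cells and for 6 in CD8 cells. Of all genes with at least 20 UMIs in the class, 39.0% and 34.1% were ordered this way at the same depth (15389 and 14722 genes, in a separate draw). In CD8 cells both lay above for 1 gene, against 30.9% of all genes. This was Atf4, seen in 43.5% and 41.2% of WT and 46.9% and 45.9% of SDHA-KO cells. As given above, the direction of its level in CD8 cells depended on which cells were used. In CD4 cells Atf4 overlapped between the groups at 5000 UMIs, with 40.7% and 37.7% of WT and 38.5% and 36.6% of SDHA-KO cells. Unthinned it was seen in 72.6% and 70.6% of WT and 74.9% and 76.3% of SDHA-KO cells, whose depth was greater. In unstimulated CD4 cells, at the same 5000 UMIs, Atf4 was seen in 18.5% and 17.9% of WT cells and 21.7% and 18.8% of SDHA-KO cells.

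**Figure D3:**
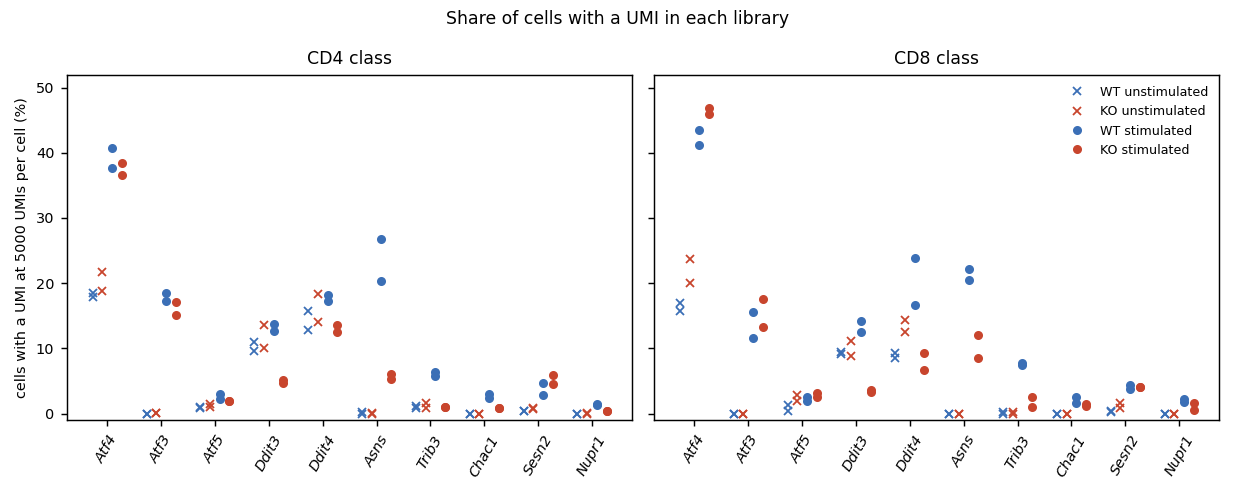
Share of cells with at least 1 UMI (y axis, percent, each cell thinned to 5000 UMIs) for each gene (x axis) in each library, with crosses for unstimulated and circles for stimulated libraries, blue for WT and red for SDHA-KO. In stimulated CD4 cells the WT libraries show Asns in 26.7% and 20.3% of cells and the SDHA-KO libraries in 6.11% and 5.34%.

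The cell subsets differed between the genotypes in the same libraries. Among stimulated CD4 cells Tem clusters held 37.1% and 38.6% of WT and 79.2% and 82.6% of SDHA-KO cells, and among CD8 cells 23.2% and 28.9% against 56.0% and 58.6%. Cells with 10% or more mitochondrial UMIs made up 60.9% and 59.0% of stimulated WT CD4 cells and 13.1% and 10.0% of SDHA-KO CD4 cells. In CD8 cells these were 75.7% and 70.7% against 35.0% and 35.9%. The 10 genes were therefore also compared within subsets and within mitochondrial ranges. Comparisons by subset and at 10% or more mitochondrial UMIs were added after the data had been seen. Most of these cell sets still differed in depth. Median UMIs per cell were 60983 and 61520 in WT and 28229 and 28380 in SDHA-KO CD4 Tem cells. In CD8 Tem cells they were 65563 and 65127 against 50089 and 48529. In CD4 cells with under 10% mitochondrial UMIs they were 59713.5 and 59710.5 against 26637.5 and 26960.5. In CD8 Tcm cells the medians overlapped. The part of depth in these comparisons was not tested.

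Within Tem clusters 8 genes were lower and Sesn2 higher in CD4 cells, and 7 were lower in CD8 cells, Atf4 among them. Of all genes tested there, 16.1% were lower and 15.5% higher in CD4 Tem, and 16.3% and 17.1% in CD8 Tem cells. Asns in CD4 Tem cells had 115 and 90.1 CPM in WT and 19.4 and 14.6 in SDHA-KO, and in CD4 Tcm cells 53.9 and 41.9 against 10.2 and 6.41. Ddit3 in CD4 Tem cells had 42.2 and 45.2 CPM in WT and 9.39 and 7.93 in SDHA-KO, and in CD4 Tcm cells 24.5 and 34.3 against 9.74 and 6.41. Both genes were lower in SDHA-KO libraries in both kinds of cluster.

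Within Tcm clusters 5 genes (Atf4, Ddit3, Asns, Trib3 and Chac1) were lower and Sesn2 higher of 9 tested in CD4 cells, and 4 (Ddit3, Ddit4, Asns and Trib3) were lower in CD8 cells. The shares of all genes were 12.3% lower and 12.8% higher in CD4 Tcm cells and 13.5% and 14.4% in CD8 Tcm cells. In cells with 10% or more mitochondrial UMIs 5 genes were lower in either class, against 8.73% of genes lower and 9.68% higher in the CD4 class and 13.9% and 14.6% in the CD8 class. Ddit4 in CD4 Tcm cells had 24.2 and 37.6 CPM in WT against 23.6 and 20.2 in SDHA-KO and was not called there, while in CD8 Tcm cells it had 35.9 and 44.6 against 15.6 and 8.94. In cells with under 10% mitochondrial UMIs 8 genes were lower and Sesn2 higher in CD4 cells (16.7% and 16% of all genes), with Atf4 at a log2 fold change of -0.71 ± 0.09 (adjusted p = 0.00014).

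The libraries were also ordered by level within each subset that had at least 30 cells in each of its 4 libraries, for genes with at least 20 UMIs there. Both SDHA-KO libraries lay below both WT libraries for 9 of the 10 genes in CD4 Tcm and 9 in CD4 Tem cells, and for 6 in CD8 Tcm and 7 in CD8 Tem cells. Of all genes with that many UMIs 33.4%, 32.9%, 34.5% and 34.0% were ordered this way. On the scale of CPM of total UMIs these were 7, 8, 6 and 7 of the 10 genes, against 22.1%, 20.6%, 28.4% and 28.8% of all genes. In unstimulated naive CD8 cells both SDHA-KO libraries lay above both WT libraries for all 4 genes with at least 20 UMIs, and in naive CD4 cells for 2 of 6. This order held for 23.2% of all genes in either class, and on the scale of total UMIs, with the same counts of the 10 genes, for 36.0% in naive CD8 and 29.6% in naive CD4 cells. These orderings carry no test, and in the naive clusters alone 0 of 5 tested genes passed in CD4 and 0 of 4 in CD8 cells with edgeR, with 1 and 2 at an unadjusted p under 0.05. Of all genes there, 1.12% were higher and 2.45% lower in CD4 and 1.33% and 3.67% in CD8 cells.

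**Figure D4:**
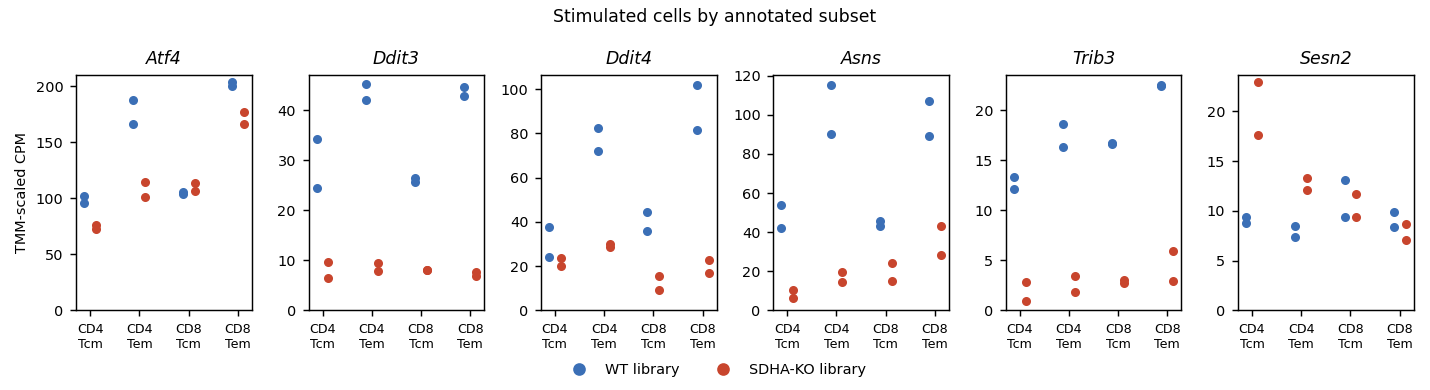
Level (y axis, TMM-scaled CPM within the subset) of 6 genes in stimulated Tcm and Tem clusters of each class (x axis), with 1 point per library, blue for WT and red for SDHA-KO. Ddit3, Asns and Trib3 are lower in both SDHA-KO libraries in all 4 subset groups, and Sesn2 is higher in both only in the CD4 groups.

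The other genes of the pathway followed in part, by lists that exclude the 10 genes. Counts of lower and higher genes are to be read against the shares of all genes given above for each class, 20.5% lower and 22.7% higher in CD4 and 23.5% and 26.8% in CD8 cells. Among 9 tested amino acid transporters of the ATF4 program 8 were lower in CD4 and 7 in CD8 cells, and none was higher. The list's median log2 fold change was -1.13 and -0.69. Slc7a5, the transporter of large neutral amino acids, had 74.2 and 75.3 CPM in WT CD4 libraries and 35.0 and 33.4 in SDHA-KO, 2.19-fold lower (adjusted p = 5.5e-06). Slc38a2, which takes up small neutral amino acids, had 152 and 139.7 CPM in WT CD8 libraries and 92.3 and 88.8 in SDHA-KO, 1.61-fold lower (adjusted p = 1.7e-05).

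Among 11 genes of amino acid synthesis 7 were lower and none higher in CD4 cells, while 5 were lower and 2 higher in CD8 cells. Psph, the last enzyme of serine synthesis, had 169 and 145 CPM in WT CD4 libraries and 79.8 and 70.2 in SDHA-KO, 2.10-fold lower, and was 1.57-fold lower in CD8 cells. The mitochondrial enzyme Shmt2 was 1.21-fold higher in CD8 cells (adjusted p = 0.022). Of 12 cytosolic tRNA synthetases 9 were lower and none higher in CD4 cells, led by Nars with 211 and 194 CPM in WT and 86.9 and 79.7 in SDHA-KO. In CD8 cells 4 were lower, led by Lars (1.48-fold), and 1, Tars, was 1.28-fold higher.

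Of 8 other tested ATF4 targets 5 were lower and 2 higher in CD4 cells, and 4 were lower and 1 higher in CD8 cells. Ndrg1, which also responds to hypoxia, had 59.0 and 58.3 CPM in WT CD4 libraries and 12.95 and 10.3 in SDHA-KO, 5.06-fold lower, and was 5.77-fold lower in CD8 cells. Bbc3, which encodes the death factor PUMA and is also a p53 target, was 2.35-fold higher in CD4 cells. Of the C/EBP partners of ATF4 1 of 3 tested in CD4 cells was lower (Cebpb, 1.27-fold) and 1 of 2 in CD8 cells (Cebpg, 1.23-fold).

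The genes upstream moved both ways. Of 9 genes for the eIF2 kinases and their control, 4 were higher and 3 lower in CD4 cells, and 3 were higher and 2 lower in CD8 cells. Eif2ak4, which encodes the amino acid sensor GCN2, had 26.0 and 27.6 CPM in WT CD4 libraries and 15.2 and 14.8 in SDHA-KO, 1.79-fold lower (adjusted p = 5.3e-05), and was 1.61-fold lower in CD8 cells. Oma1, the protease that starts the mitochondrial arm through DELE1, was 1.52-fold higher in CD4 cells, from 16.1 and 17.6 to 24.7 and 26.7 CPM, and Eif2s1, the eIF2α subunit, was 1.63-fold higher in CD8 cells.

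Lists of other stress pathways give a frame. Of 11 ER chaperones and related ATF6 or XBP1 targets 8 were lower and 2 higher in CD4 cells but 3 lower and 5 higher in CD8 cells. Herpud1 was 2.02-fold and 1.32-fold lower, and Creld2 1.31-fold and 2.11-fold higher, in CD4 and CD8 cells. Of 7 mitochondrial chaperones and proteases 3 were higher and 1 lower in CD4 cells, and 5 higher and 1 lower in CD8 cells. Hspd1, the chaperonin HSP60, was 1.37-fold and 1.94-fold higher, and the protease gene Lonp1 1.93-fold and 1.56-fold lower.

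Targets of HIF-1 were mostly lower and targets of p53 mostly higher. All 10 HIF-1 targets were lower in CD4 and 9 in CD8 cells, with the glucose transporter gene Slc2a3 9.10-fold lower in CD4 and the oxygen sensor gene Egln3 5.98-fold lower in CD8 cells. Of 8 p53 targets 7 were higher and 1 lower in CD4 cells, and 6 higher and 1 lower in CD8 cells. Phlda3 had 10.7 and 11.7 CPM in WT CD4 libraries and 106 and 136 in SDHA-KO, 10.8-fold higher, and Sesn1, the relative of Sesn2, was 1.19-fold lower. Of 5 glucocorticoid targets 2 were lower in CD4 and 1 in CD8 cells and none was higher. In all unstimulated T cells, both classes together, the genes called higher were 2 of 12 tRNA synthetases and 1 of 8 other ATF4 targets. Besides these, 1 of 10 HIF-1 targets and 1 of 8 p53 targets were higher, and no gene of these lists was lower. Of all genes there, 0.668% were higher and 1.08% lower. The median log2 fold change was 0.24 for synthetases, 0.23 for other ATF4 targets, 0.23 for amino acid synthesis and 0.0071 for transport, beside 0.00 for all genes. By class, none of the 12 synthetases was called in unstimulated CD4 or CD8 cells. Of the 8 other ATF4 targets 1 was higher in CD4 and none in CD8 cells. Likewise 1 HIF-1 target was higher in CD4 and none in CD8 cells, and 1 p53 target in either class.

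**Figure D5:**
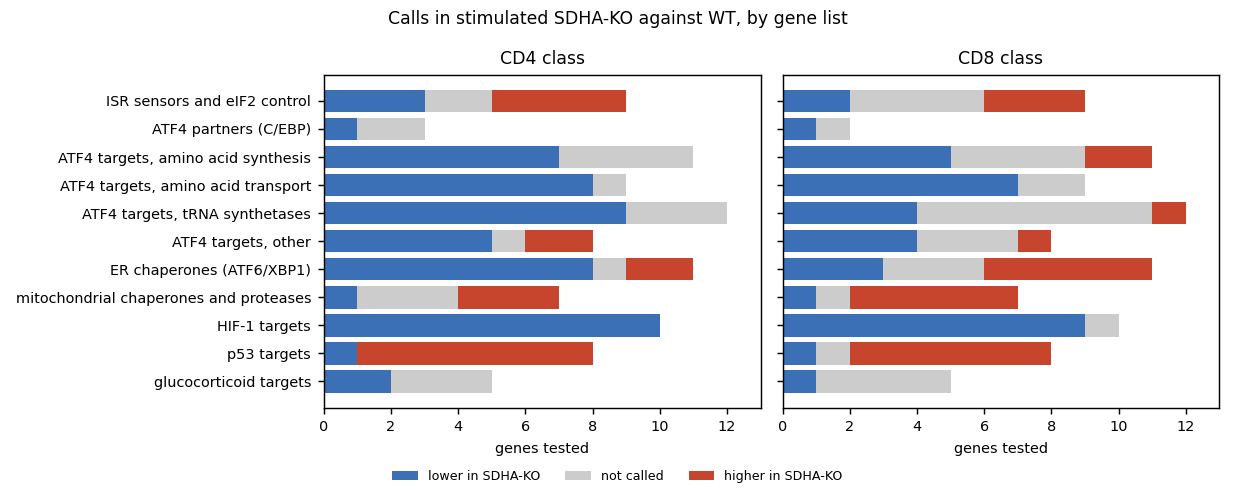
Number of genes tested in each list (x axis) that were lower, not called or higher in stimulated SDHA-KO against WT cells, for the CD4 class (left) and the CD8 class (right), without the 10 genes themselves. Among amino acid transporters 8 of 9 are lower in CD4 and 7 of 9 in CD8 cells, and among p53 targets 7 and 6 of 8 are higher.

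Over the 16 sums of CD4 and CD8 cells per library, the genes most like Asns by Pearson's r of log2 CPM were Hist1h2ap (0.99), Gapdh (0.99), Lonp1 (0.99), Hist1h3c (0.99) and Aldoa (0.99), out of 5809 genes whose mean was 20 CPM or more. Among the 10 genes Chac1 (0.99), Atf4 (0.98) and Atf3 (0.98) were near it and Ddit3 was not (-0.20). Those most like Ddit4 were Bnip3l (0.90), Akap9 (0.89), Ppard (0.88), Kdm5b (0.88) and Pcm1 (0.88), and among the 10 genes Ddit3 (0.76) and Trib3 (0.67). The sums share libraries and include the difference between stimulated and unstimulated cells, so these values only describe the pattern.

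Markers of other cell types stood as follows in the stimulated sums, in CPM of total UMIs. The 6 B cell markers summed to 27.8 to 101 in WT and 63.9 to 345 in SDHA-KO, the highest value in CD8 cells of replicate 1. The 6 myeloid markers summed to 79.0 to 88.2 in WT and 147 to 163 in SDHA-KO. The 5 NK cell markers summed to 76.8 and 85.2 in WT and 199 and 222 in SDHA-KO CD4 cells, and to 496 and 561 against 911 and 1052 in CD8 cells. The 4 erythroid markers summed to at most 3.65, and the 6 T cell markers to 2226 to 3061. Over the 8 libraries 1 of the 6 myeloid markers had no UMI in CD8 cells. On the TMM scale Nkg7, of the NK list, had 73.7 and 69.0 CPM in WT and 172 and 193 in SDHA-KO CD4 cells. Cst3, of the myeloid list, had 76.9 and 74.0 against 132 and 145 CPM there. Igkc, of the B cell list, had 202 and 2.04 CPM in SDHA-KO CD8 cells. Such sums rest largely on single genes and are no count of cells of a type. The part of these markers in the results was not tested.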

How the data were processed

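Single-cell libraries of mouse T cells were made by the authors with a droplet 3′ kit and processed with bcl2fastq and Cell Ranger against mm10, per the labels (versions not given in the sources used here). The deposited matrix holds UMI counts of 20170 genes in 12846 cells, already filtered by the authors, together with their table of library, CD class and cluster for each cell. How doublets were treated is not given in the sources used here. The percent of mitochondrial UMIs per cell was computed from the 13 mitochondrial genes of the matrix.

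UMIs were summed per library, CD class and cluster. Sums of all 8 libraries entered 1 fit of 4 groups (edgeR 4.0.16, filterByExpr with a minimum count of 10 and total of 15, TMM, glmQLFit and glmQLFTest, 4 residual degrees of freedom, in R 4.3.3), with Benjamini-Hochberg adjustment over all genes tested. The CD8 minus CD4 difference was fitted, with library as a block, on both classes of each stimulated library. The common dispersion was 0.00759, 0.00763 and 0.00679 for all, CD4 and CD8 cells. Replicate libraries differed by more than counting error. Alternatives used DESeq2 1.42.0, RLE factors, no scaling, no filter, a 1.5-fold threshold, thinned libraries, other cell sets and each library left out. Fits were tested on simulated data. Cells were thinned to 5000 UMIs (3000 as an alternative) without replacement.

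The 10 genes and the lists were chosen with earlier results of these data known. The text names all 10 genes, for each list the called gene with the largest rise and fall at a mean of at least 20 CPM in either class, and the 5 genes most like Asns and Ddit4. Promoter windows and positions came from RefSeq (GRCm38.p6), which held all 10 genes. Intervals and floors cover counting error only.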

Additional observations from a re-analysis of the deposited data

Results flagged for a closer look

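Differences of the SDHA-KO effect that passed the test were flagged for the 10 genes. Between stimulated CD8 and CD4 cells (CD8 minus CD4, log2) they were 0.49 for Atf4, 0.72 for Atf3, 1.13 for Asns, 1.04 for Chac1, -0.83 for Ddit4 and -0.96 for Sesn2. The stimulated SDHA-KO CD8 class held 59.1% and 56.1% cells with a Trdc UMI, and in the strict classes Ddit4 and Sesn2 were not called.

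Between stimulated and unstimulated cells (log2) the differences were -2.16 for Ddit3, -1.53 for Ddit4 and -2.81 for Trib3 in all T cells, -0.53 for Atf4, -2.12 for Ddit3, -1.22 for Ddit4 and -2.73 for Trib3 in CD4 cells, and -2.33 for Ddit3 and -2.20 for Ddit4 in CD8 cells. Atf3 was called with fitted values of -6.31 in all T cells and -6.36 in CD4 cells, which rest on 6 UMIs in the unstimulated libraries and are no bound on a fold.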

How the results depend on the processing

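Of 213 alternative counts of called genes or ordered pairs, 207 stayed within 1.5 times the main count. The count of 9 in stimulated CD4 cells was 5 in cells with 10% or more mitochondrial UMIs. When at least a 1.5-fold change was required, the 5 genes of the difference between states in CD4 cells became 3 and the 6 of the CD8 minus CD4 difference became 1. Leaving out each library gave 3 to 6 genes for the difference between states in CD4 cells, with 3 without unstimulated WT replicate 1 or 2 or unstimulated SDHA-KO replicate 1.

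Signs turned for 4 genes that had not passed the test. In stimulated CD8 cells Atf4 was -0.24 under 10% mitochondrial UMIs, -0.26 in Tem clusters and -0.12 at 10% or more. Atf3 was -0.055 without composition normalization and -0.057 with thinned libraries, -0.24 under 10% mitochondrial UMIs, -0.27 in Tem and -0.29 in Tcm clusters, -0.44 at 10% or more, and ranged from -0.22 to 0.16 with a library left out. Atf5 was 0.0019 with RLE factors, 0.013 without a filter, 0.0076 with only the groups compared, 0.21 in the strict class, 0.14 in Tcm clusters, and from -0.38 to 0.25 with a library left out. Sesn2 was 0.036 with thinned libraries, 0.31 in the strict class, 0.12 at 10% or more, and from -0.28 to 0.034 with a library left out. Atf5 in CD4 cells was 0.13 with thinned libraries. The cause was not tested.

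The replicate block left 3 of the 4 genes called for the difference between states in all T cells and changed no other count. The deviations of replicate 1 libraries correlated between -0.26 and 0.01 across groups. With 2 libraries a group this cannot settle whether the numbers pair the samples. Genes under 10 UMIs in unstimulated cells limit every statement about that state.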

Other observations

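The number of the 10 genes seen in the same cell was also counted. At 5000 UMIs per cell, 15.3% and 12.04% of stimulated WT CD4 cells showed 3 or more of the 10 genes, against 4.99% and 4.51% of SDHA-KO CD4 cells, and without thinning 53.6% and 52.9% against 41.0% and 37.6%. In unstimulated CD4 cells at 5000 UMIs these were 0.480% and 0.675% in WT and 1.51% and 0.647% in SDHA-KO. Both stimulated SDHA-KO libraries lay below both WT libraries, with no test.

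How far the UMIs of a gene sat in few cells was described in stimulated CD4 cells. The 1% of cells richest in Asns held 12.4% and 13.1% of its UMIs in WT and 27.8% and 29.1% in SDHA-KO. For Trib3 these were 17.5% and 20.5% against 40.2% and 57.8%, the last from 64 UMIs in all. For Atf4 they were 10.8% and 10.1% against 8.26% and 8.26%, and for Ddit4 11.2% and 10.9% against 10.9% and 9.82%. A scarcer transcript is found in fewer cells by counting alone, so the shares of genes of different levels are not comparable. The same holds for a gene between genotypes where its level differs, as for Asns and Trib3.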
